A study of Homo sapiens with 16 samples.

Results

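The 10 genes described here, FOXA1, GATA3, PPARG, ELF3, KLF5, MECOM, TBX2, TBX3, TFAP2A and SPDEF, encode transcription factors listed as luminal for the urothelium. They were taken by gene name from the 58721 genes of the deposited count and TPM tables, and each name matched 1 row. Below, TFAP2A was higher in the basal line than in the luminal one, MECOM did not differ past the test and SPDEF was barely detected. RNA 3' ends were sequenced from 2 human bladder cancer cell lines, RT112 (a line of the luminal papillary subtype, per the study) and SCaBER (a line of the basal/squamous subtype), in 16 libraries. Per the labels, each line was transfected with 10 nM of 1 of 4 siRNAs: the controls siControl.1 and siControl.2, and siFOXA1.1 and siFOXA1.2, which target FOXA1. For every siRNA a line has 2 libraries, batch replicates 1 and 2 in the labels, which makes 4 siControl and 4 siFOXA1 libraries per line. The knock-down was short (under 72 h per the study). RT112 grew in RPMI medium and SCaBER in DMEM, so line and medium cannot be told apart, and each subtype is represented by 1 line. No time point, age or allele distinguishes the groups, and every library, controls included, had been transfected.

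In the urothelium, the epithelium that lines the bladder, basal cells renew the tissue and luminal cells differentiate into the barrier that faces urine. FOXA1 is a pioneer factor of the forkhead family that can bind closed chromatin, GATA3 is a zinc finger factor that marks luminal cells, and PPARG is a ligand-activated nuclear receptor that drives urothelial differentiation. ELF3 is an epithelial ETS factor, KLF5 a Krüppel-like factor, TFAP2A an AP-2 factor, TBX2 and TBX3 are T-box repressors, MECOM is a zinc finger factor and SPDEF an ETS factor of secretory epithelia. Luminal bladder tumours are known for high FOXA1, GATA3 and PPARG, and basal tumours for their loss.

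Among the genes other than FOXA1, KLF5 had the largest change past the test under siFOXA1.1 in RT112. ELF3, chosen after its values were seen, was the only 1 of the 10 that passed under siFOXA1.2 there in the fit without a batch block. Their promoters are shown so that the sequence before each annotated start can be read beside those changes. The 250 bases before the start are from RefSeq (GRCh38.p14, plus strand, 5′ to 3′), at chr13:73054726-73054975 and chr13:73058755-73059004 for the annotated starts of KLF5 and at chr1:202010337-202010586 for ELF3. Capitals mark a match to any of 8 motifs on either strand: the forkhead core TGTTTAC, its variant TATTTAC, its other variant TGTTTGC, the GATA core AGATAA, its variant form TGATAA, the GC box GGGCGG that KLF and SP factors bind, the AP-2 core GCCNNNGGC and the nuclear receptor hexamer AGGTCA, and a GC box on the other strand reads CCGCCC.
KLF5 first start: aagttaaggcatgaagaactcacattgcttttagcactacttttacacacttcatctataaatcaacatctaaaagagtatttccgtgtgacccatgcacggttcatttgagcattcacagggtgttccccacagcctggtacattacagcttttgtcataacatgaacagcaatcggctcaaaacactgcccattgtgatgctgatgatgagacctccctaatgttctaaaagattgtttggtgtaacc
KLF5 second start: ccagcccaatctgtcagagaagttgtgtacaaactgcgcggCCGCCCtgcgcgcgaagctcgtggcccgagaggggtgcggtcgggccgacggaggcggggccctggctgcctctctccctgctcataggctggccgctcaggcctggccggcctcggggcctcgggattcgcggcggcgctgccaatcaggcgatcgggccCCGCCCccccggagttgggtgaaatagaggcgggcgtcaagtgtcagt
ELF3: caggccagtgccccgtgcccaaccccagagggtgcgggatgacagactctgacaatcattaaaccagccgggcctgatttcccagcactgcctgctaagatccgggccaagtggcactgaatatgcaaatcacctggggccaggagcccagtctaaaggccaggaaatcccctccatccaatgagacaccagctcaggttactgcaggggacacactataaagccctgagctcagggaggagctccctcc
The second KLF5 window held 2 GC boxes, and the first KLF5 window and the ELF3 window held none of the 8 motifs. Of 35116 such windows over all genes, 42.6% held a GC box, 8.27% a forkhead core, 14.6% a GATA core, 19.8% the AP-2 core and 12.1% the hexamer, where the GC box and the AP-2 core can overlap. Windows were found for 8 of the 10 genes, and TBX2 and TBX3 had no entry. A forkhead core was in the window of FOXA1 and of SPDEF, in 1 of 6 windows of GATA3 and in 1 of 3 windows of MECOM. The windows of PPARG (6) and TFAP2A (2) held no forkhead core, and 2 of the 6 PPARG windows held a GATA core. A match is a description of the letters, and their absence from a window says nothing about binding. Which start the cells used cannot be read from 3' ends.

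The libraries held 6622473 to 7604581 counts in RT112 and 4528513 to 6914951 counts in SCaBER. A floor of 3 counts, which covers counting error alone, stood for 0.394 to 0.453 CPM (the count of a gene relative to the summed counts of its library) in the RT112 libraries. In the SCaBER libraries it stood for 0.434 to 0.662 CPM. The labelled subtypes were checked on markers. Under siControl, the summed CPM of 8 luminal markers was 2070 to 2548 for RT112 and 1041 to 1326 for SCaBER, and that of 8 basal markers was 345 to 498 and 2252 to 3803. KRT20 and UPK3A, markers of terminal luminal cells, had at most 3 counts in every siControl library of both lines. Leukocyte markers summed to at most 3.22 CPM and endothelial markers to at most 11.2 CPM in any library. Of 5 fibroblast markers, COL3A1 and DCN had at most 3 counts in all libraries, and the 5 summed to 84.6 to 146 CPM over the RT112 libraries and to 10.0 to 44.0 CPM over the SCaBER libraries. Mitochondrial genes took 25.7% to 28.2% of the counts under siFOXA1.1 in RT112, 17.99% to 21.2% in the other RT112 libraries and 10.3% to 12.1% in SCaBER.

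The first comparison asks how the factors differ between the luminal and the basal line without FOXA1 knock-down. Under siControl, 7 of the 9 factors tested were higher in RT112, TFAP2A was higher in SCaBER, and MECOM did not pass. That is 8 of 9 past an adjusted p of 0.05 (edgeR quasi-likelihood test, Benjamini-Hochberg over 12309 genes), where 43.4% of all genes tested passed. GATA3 differed most among the factors detected in both lines. It had 437, 425, 432 and 467 CPM in RT112 and 11.5, 11.7, 7.79 and 18.1 CPM in SCaBER, a log2 difference of 5.19 (SE 0.21, adjusted p 1.49e-10). The lowest RT112 library thus lay far above the highest SCaBER library.

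FOXA1 itself was the next. It had 27.8 ± 6.98 CPM in RT112 and 1.39 ± 0.971 CPM in SCaBER (SD, n = 4 each), a log2 difference of 4.35 (SE 0.47, adjusted p 3.21e-06). In SCaBER its siControl libraries held 3, 4, 15 and 9 counts, so that the level there was close to the floor. TBX2, a repressor linked to proliferation control, had 0 counts in all 8 SCaBER libraries. In RT112 it had 30.1, 53.8, 40.9 and 33.6 CPM under siControl, which makes it at least 74.8-fold higher there than the mean floor of the SCaBER siControl libraries (0.529 CPM).

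PPARG, KLF5, ELF3 and TBX3 were detected in both lines and were higher in RT112. The log2 differences were 1.79 for PPARG (SE 0.23), 1.90 for KLF5 (SE 0.22), 1.58 for ELF3 (SE 0.18) and 1.47 for TBX3 (SE 0.28). Their adjusted p values were 1.92e-05, 6.29e-06, 4.52e-06 and 0.000501. PPARG averaged 78.1 ± 6.35 CPM against 22.8 ± 7.40 CPM, and KLF5 511 ± 92.9 CPM against 139 ± 40.6 CPM (SD, n = 4 each). ELF3 averaged 349 ± 88.4 CPM against 118 ± 10.5 CPM and TBX3 71.6 ± 11.8 CPM against 26.0 ± 11.2 CPM (SD, n = 4 each). In each of the 4 genes the RT112 libraries lay above all SCaBER libraries.

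TFAP2A went the other way. It had 46.8, 46.7, 45.6 and 38.6 CPM in RT112 and 108, 94.3, 101 and 101 CPM in SCaBER, a log2 difference of -1.17 (SE 0.15, adjusted p 2.24e-05). MECOM, a factor with a known role in haematopoietic and epithelial cells, averaged 40.2 ± 3.90 CPM in RT112 and 38.8 ± 3.35 CPM in SCaBER (SD, n = 4 each). The log2 difference of MECOM was 0.07 (SE 0.18, adjusted p 0.808) and its groups overlapped in CPM. In TPM the MECOM libraries of RT112 (7.80 to 9.80) lay just below those of SCaBER (9.85 to 11.6), and limma on log2(TPM + 1) gave -0.30 (adjusted p 0.185). SPDEF was not tested: it held 1 count in all over the 8 RT112 libraries and 3 counts over the 8 SCaBER libraries, never above the floor, so no change could be measured at this depth.

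Levels were compared between genes in TPM, in which counts are divided by gene length. Since 3' reads do not grow with length, this order can differ from the order in CPM. In RT112 under siControl the order was KLF5 (256 ± 38.7 TPM), GATA3 (251 ± 16.2), ELF3 (94.7 ± 21.4), PPARG (33.8 ± 3.61), TBX3 (23.5 ± 3.22), FOXA1 (13.6 ± 3.10), TBX2 (12.8 ± 3.23), TFAP2A (10.5 ± 0.813), MECOM (8.65 ± 0.885) and SPDEF (0.0325 ± 0.0650; SD, n = 4 each). KLF5 overlapped with GATA3, FOXA1 with TBX2, TBX2 with TFAP2A and TFAP2A with MECOM over their libraries, and the other neighbours did not overlap. By TPM, 4791 of all genes lay above FOXA1, the target of the knock-down, 299 above KLF5 and 309 above GATA3. In CPM FOXA1 (27.8) was the lowest of these factors other than SPDEF, below TBX2 (39.6), MECOM (40.2) and TFAP2A (44.4). Its place among the factors thus depends on the division by length.

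In SCaBER the order was KLF5 (90.7 ± 25.2 TPM), ELF3 (42.2 ± 4.87), TFAP2A (31.2 ± 1.04), PPARG (12.9 ± 4.398), TBX3 (11.1 ± 4.58), MECOM (10.9 ± 0.752), GATA3 (9.15 ± 3.26), FOXA1 (0.887 ± 0.614), SPDEF (0.107 ± 0.215) and TBX2 (0; SD, n = 4 each). PPARG, TBX3 and MECOM each overlapped with the next in this order, as did FOXA1 with SPDEF and SPDEF with TBX2, while GATA3 lay above FOXA1 in every library. KLF5 led in both lines, and GATA3 moved from the second to the seventh place.

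**Figure D1:**
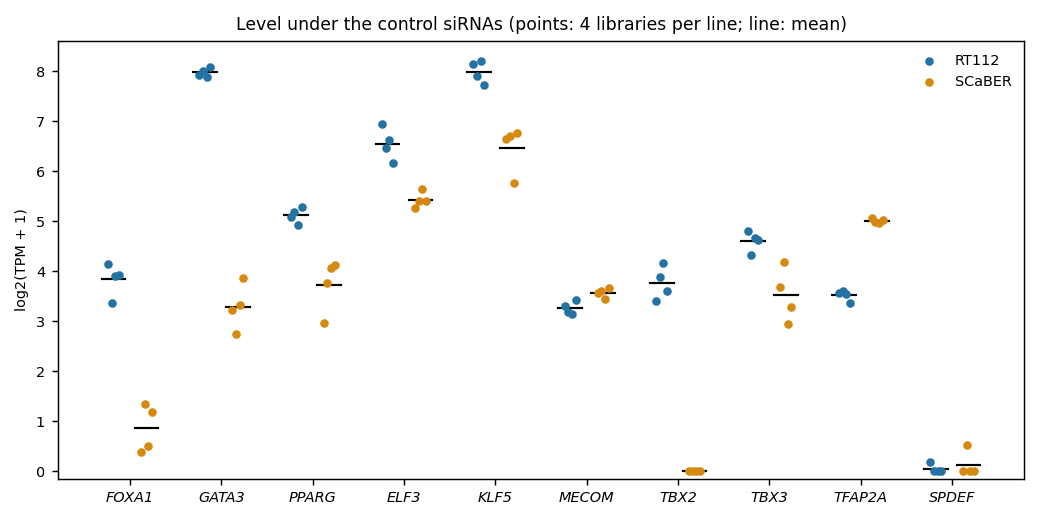
Level of each factor under the control siRNAs, as log2(TPM + 1) on the y axis, in RT112 (blue) and SCaBER (orange). Points are the 4 siControl libraries of a line and the short line is their mean; TFAP2A is the factor with higher points in SCaBER that passed the test, and TBX2 is at 0 in SCaBER.

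The second comparison asks how the factors changed under each FOXA1 siRNA in RT112. In the fit without a batch block, FOXA1, KLF5, GATA3 and PPARG fell under siFOXA1.1, and ELF3 alone fell past the test under siFOXA1.2 (KLF5 too with the block). Thus 4 of 9 factors passed under siFOXA1.1, all lower, where 32.6% of the 11986 genes tested passed, and 1 of 9 under siFOXA1.2, where 2.04% passed. Under siFOXA1.1, 4 of 9 was thus not far from the share of all genes. FOXA1, 1 of the 4, is the target of the siRNA, so its fall was aimed at by design. It also enters the medians that follow. The median log2 change of the 9 factors was -0.51 under siFOXA1.1 and -0.25 under siFOXA1.2, against -0.01 and 0.01 over all genes tested. In these bulk libraries, fewer cells that express a gene and less of its RNA per cell cannot be told apart. The replicates are 2 libraries of each siRNA from numbered batches, and whether they came from separate cultures is not stated, so the p-values measure the spread between these libraries.

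FOXA1 (ENSG00000129514, chr14:37589552-37595249 in GRCh38.p14) had 35.0 and 29.4 CPM under siControl.1, 18.2 and 28.4 CPM under siControl.2, 1.32 and 3.24 CPM under siFOXA1.1 and 9.18 and 16.0 CPM under siFOXA1.2 (replicates 1 and 2). All 4 siFOXA1 libraries lay below all 4 siControl libraries, and siFOXA1.1 went lower than siFOXA1.2. The log2 fold change was -3.44 (SE 0.47, adjusted p 2.19e-05) under siFOXA1.1, which left 8.21% of the mean control level. Under siFOXA1.2 it was -1.10 (SE 0.39, adjusted p 0.205), which left 45.3%. Percentages of control and CPM values use library totals, which under siFOXA1.1 held a larger mitochondrial share in RT112. The log2 fold changes were scaled by TMM, so there CPM can show a larger fall than they do.

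GATA3 (ENSG00000107485, chr10:8045333-8075198) had 437 and 425 CPM under siControl.1, 432 and 467 CPM under siControl.2, 219 and 235 CPM under siFOXA1.1 and 397 and 333 CPM under siFOXA1.2. The groups of 4 did not overlap, and the siFOXA1.1 libraries were at 51.6% of the mean control level, against 82.8% for siFOXA1.2. GATA3 fell under siFOXA1.1, with a log2 value of -0.82 (SE 0.11, adjusted p 2.40e-05), and under siFOXA1.2 the value was -0.25 (SE 0.11, adjusted p 0.358).

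PPARG (ENSG00000132170, chr3:12287368-12434344) had 77.8 and 70.2 CPM under siControl.1, 78.6 and 85.7 CPM under siControl.2, 38.1 and 49.9 CPM under siFOXA1.1 and 76.2 and 67.2 CPM under siFOXA1.2. The siFOXA1.1 libraries lay below all others, while the siFOXA1.2 libraries overlapped with the controls. The log2 fold change of PPARG was -0.69 (SE 0.19, adjusted p 0.00845) under siFOXA1.1 and -0.10 (SE 0.18, adjusted p 0.910) under siFOXA1.2. Without siFOXA1.1 replicate 1 the first was -0.49 with an adjusted p of 0.104, so the call of PPARG rests on that library.

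KLF5 (ENSG00000102554, chr13:73054976-73077538), which supports proliferation and barrier genes in epithelia, had 577 and 601 CPM under siControl.1, 459 and 408 CPM under siControl.2, 183 and 112 CPM under siFOXA1.1 and 369.8 and 327 CPM under siFOXA1.2. Every siFOXA1 library lay below every siControl library. KLF5 fell under siFOXA1.1, with a log2 value of -1.65 (SE 0.15, adjusted p 2.60e-07), to 28.9% of the mean control level. Under siFOXA1.2 the log2 fold change of KLF5 was -0.52 (SE 0.14, adjusted p 0.0779). With the batch replicate as a block it passed (-0.52, adjusted p 0.0394). In that fit 2 of 9 factors passed under siFOXA1.2, where 258 of 11986 genes did. KLF5 also passed with DESeq2 (adjusted p 0.0117), without siFOXA1.1 replicate 1 (0.00592) and without siFOXA1.1 replicate 2 (0.00543). In 9 of 15 alternatives it did not, limma among them (adjusted p 0.310). The value of KLF5 differed with the control: against siControl.1 alone the value was -0.77 (adjusted p 0.0118) and against siControl.2 alone -0.26 (adjusted p 0.653), a comparison chosen after seeing the data.

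ELF3 (ENSG00000163435, chr1:202010587-202017183) showed another order. It had 461 and 372 CPM under siControl.1, 308 and 256 CPM under siControl.2, 331 and 246 CPM under siFOXA1.1 and 181 and 151 CPM under siFOXA1.2. Both siFOXA1.2 libraries lay well below all controls, at 47.4% of their mean, while 1 siFOXA1.1 library was within the range of the controls and the other just under it. ELF3 fell under siFOXA1.2, with a log2 value of -1.03 (SE 0.14, adjusted p 0.000440), and under siFOXA1.1 it was -0.12 (SE 0.14, adjusted p 0.554). The control siRNAs also differed in ELF3, by 0.62 (SE 0.16, adjusted p 0.0447), higher in siControl.1. That was 1 of 9 factors, where 2.36% of all genes differed between the control siRNAs. In 6 of 8 fits that left out 1 library this call was lost (without any siControl or siFOXA1.2 library, adjusted p 0.0570 to 0.395). Against siControl.2 alone the fall under siFOXA1.2 was -0.72 (adjusted p 0.0329) and against siControl.1 alone -1.34 (adjusted p 8.81e-05). With limma on log2(TPM + 1) it had an adjusted p of 0.0520.

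TBX3 had 83.6 and 76.1 CPM under siControl.1, 55.8 and 70.9 CPM under siControl.2, 52.4 and 38.5 CPM under siFOXA1.1 and 42.5 and 60.2 CPM under siFOXA1.2. The groups of 4 overlapped in 1 siFOXA1.2 library. The log2 fold change of TBX3 was -0.51 (SE 0.21, adjusted p 0.0674) under siFOXA1.1 and -0.45 (SE 0.21, adjusted p 0.391) under siFOXA1.2. Scaled by library totals alone the first was -0.65 with an adjusted p of 0.0263, with limma on log2(TPM + 1) -0.80 (adjusted p 0.0231), and without siFOXA1.1 replicate 1 -0.73 (adjusted p 0.0391). Against siControl.1 alone it was -0.71 (adjusted p 0.0303) and against siControl.2 alone -0.31 (adjusted p 0.362), and without siFOXA1.1 replicate 2 it was -0.34 (adjusted p 0.339). TBX3 did not pass in 11 of 15 alternatives.

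TBX2, MECOM and TFAP2A did not pass under either siRNA. TBX2 ranged from 23.3 to 53.8 CPM over the 8 RT112 libraries, with log2 fold changes of -0.25 (SE 0.27, adjusted p 0.518) and 0.22 (SE 0.26, adjusted p 0.839) under siFOXA1.1 and siFOXA1.2. MECOM ranged from 31.7 to 48.6 CPM, with -0.13 (SE 0.22, adjusted p 0.696) and 0.18 (SE 0.22, adjusted p 0.846). TFAP2A ranged from 38.6 to 59.1 CPM, with 0.38 (SE 0.21, adjusted p 0.174) and 0.07 (SE 0.21, adjusted p 0.951). Each of these genes had siFOXA1 and siControl libraries that overlapped. Antisense transcripts lie at some of the loci: GATA3-AS1 had 38 to 165 counts per RT112 library, TBX2-AS1 24 to 107 and ELF3-AS1 13 to 64. Strandedness was set to automatic in the deposited configuration and the choice made is not given, so reads of a gene and of its antisense partner may not have been told apart.

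**Figure D2:**
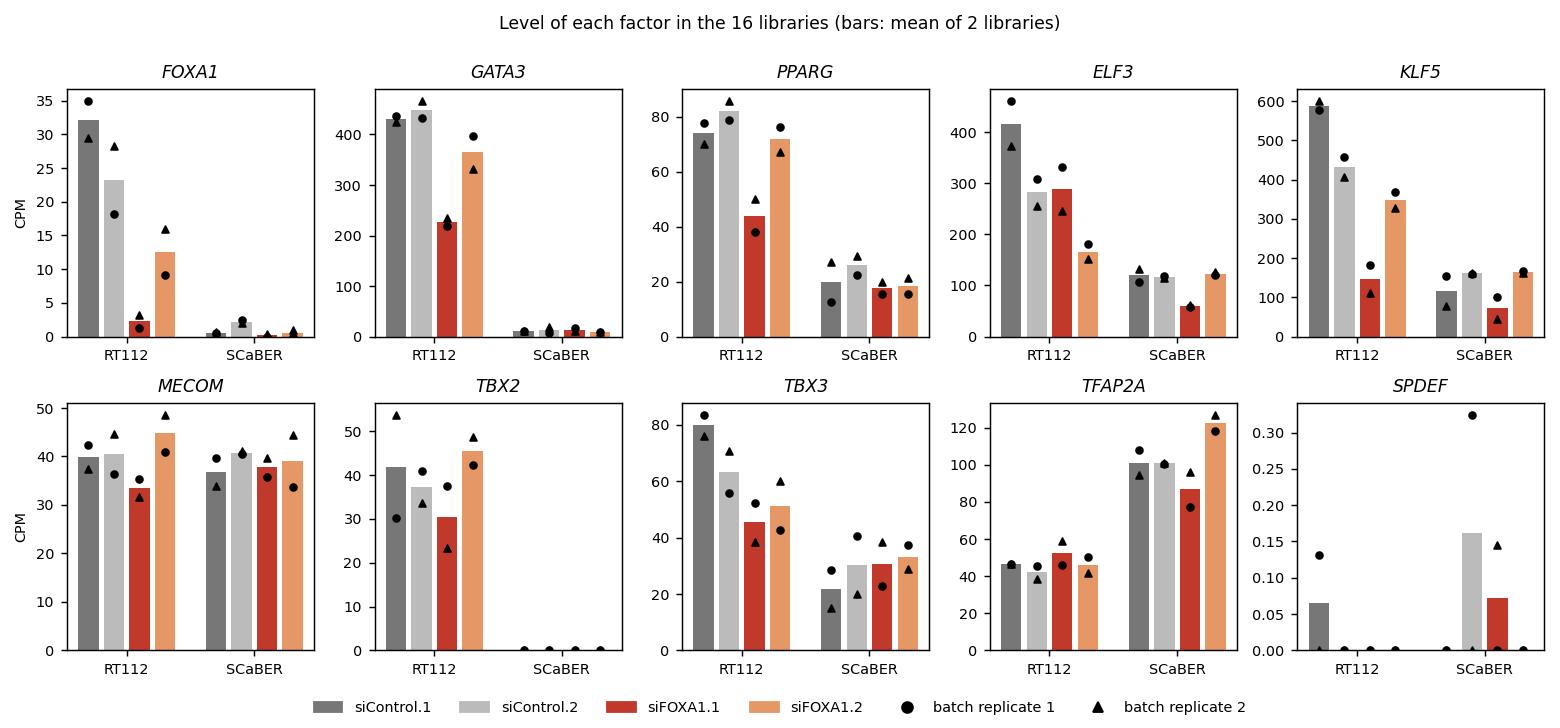
CPM of each factor (y axis, from 0) in all 16 libraries, by line and siRNA; bars are means of 2 libraries, circles batch replicate 1 and triangles batch replicate 2. In RT112 the means of FOXA1, GATA3, PPARG and KLF5 are lowest under siFOXA1.1. So are those of MECOM, TBX2 and TBX3, which did not pass the test there. ELF3 is lowest under siFOXA1.2. The SPDEF axis ends below 0.4 CPM.

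The siRNAs were then compared with each other in RT112. Between siFOXA1.1 and siFOXA1.2, 5 of 9 factors differed, the target FOXA1 among them, where 28.1% of all genes did. FOXA1 (-2.34, SE 0.50, adjusted p 0.00181), KLF5 (-1.13, SE 0.17, adjusted p 6.27e-05), GATA3 (-0.57, SE 0.13, adjusted p 0.00280) and PPARG (-0.58, SE 0.21, adjusted p 0.0461) were lower under siFOXA1.1 on the log2 scale. ELF3 was higher under siFOXA1.1, by 0.91 (SE 0.16, adjusted p 0.000354). So the siRNAs moved ELF3 and the other 4 apart in opposite directions. The call of PPARG was lost in 7 of 8 fits that left out 1 library, all but the fit without siFOXA1.1 replicate 2 (adjusted p 0.0628 to 0.256). Likewise the call of GATA3 was lost without siFOXA1.2 replicate 1, a fit that leaves 1 library of that siRNA. The log2 value of GATA3 ran from -0.69 to -0.44 when 1 library was left out. With limma, ELF3 had an adjusted p of 0.0667. Within batches 1 and 2, the log2 ratio to the mean of the controls of the same batch was -1.41 and -2.03 for KLF5 under siFOXA1.1 and -0.47 and -0.61 under siFOXA1.2. For ELF3 it was -0.12 and -0.22 under siFOXA1.1 and -1.08 and -1.04 under siFOXA1.2, so the order of the siRNAs held in both batches. GATA3 had -0.89 and -0.77 under siFOXA1.1 and -0.12 and -0.40 under siFOXA1.2, and PPARG -0.93 and -0.49 against -0.02 and -0.19.

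Pooling both siRNAs, as the study did, set 4 siFOXA1 against 4 siControl libraries, and 0 of 9 factors passed in RT112, where 0.108% of all genes did. At an unadjusted p under 0.05 edgeR had 4 of 9 factors and 1454 of 11986 genes, and DESeq2 and limma also called 0 factors. The pooled log2 fold changes were -1.86 for FOXA1 (SE 0.57, adjusted p 0.278), -0.996 for KLF5 (SE 0.30, adjusted p 0.277), -0.54 for ELF3 (SE 0.28, adjusted p 0.456), -0.51 for GATA3 (SE 0.18, adjusted p 0.313), -0.49 for TBX3 (SE 0.21, adjusted p 0.389) and -0.37 for PPARG (SE 0.21, adjusted p 0.506). The spread in this fit includes that between the siRNAs of a group. With 1 mean per siRNA in the fit, 4 of 9 factors passed, where 2101 of 11986 genes did. The 4 were FOXA1 (-2.27, adjusted p 0.000116), KLF5 (-1.08, adjusted p 4.45e-06), GATA3 (-0.53, adjusted p 0.000419) and ELF3 (-0.57, adjusted p 0.00160). The spread in that fit is only that between the 2 libraries of a siRNA, so it leaves out the spread between siRNAs. ELF3 passed there although its value under siFOXA1.1 alone was -0.12 (adjusted p 0.554). In CPM, the groups of 4 did not overlap for 3 of 9 factors (the target FOXA1, GATA3 and KLF5) in RT112, where 7.95% of all genes did not.

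In SCaBER, ELF3 fell under siFOXA1.1 and no other factor passed in the fit without a batch block (KLF5 passed too with the block). FOXA1 (0 to 15 counts per library), TBX2 and SPDEF did not pass the filter on low counts and were not tested. Under siFOXA1.1, 1 of 7 factors passed, ELF3, where 9.26% of the 11902 genes tested did. Under siFOXA1.2, 0 of 7 passed in edgeR, DESeq2 and limma, where 0.042% of all genes did, and 0 of 7 had an unadjusted p under 0.05. The median log2 change of the 7 factors was -0.19 under siFOXA1.1 and 0.07 under siFOXA1.2, against 0.01 over all genes in both.

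ELF3 in SCaBER had 107 and 132 CPM under siControl.1, 118 and 115 CPM under siControl.2, 57.4 and 61.3 CPM under siFOXA1.1 and 119.5 and 125 CPM under siFOXA1.2. The siFOXA1.1 libraries lay below all 6 others, at 50.2% of the mean control level. The change of ELF3 was -0.96 on the log2 scale under siFOXA1.1 (SE 0.20, adjusted p 0.00730), and 0.07 under siFOXA1.2 (SE 0.19, adjusted p 0.999). The siRNAs themselves differed by -1.03 (SE 0.22, adjusted p 0.0148), which was the 1 of 7 factors that passed, where 4.85% of all genes did. That call was lost without siFOXA1.2 replicate 1 (adjusted p 0.131) and without siFOXA1.2 replicate 2 (adjusted p 0.129), and with limma (adjusted p 0.0573). ELF3 was thus low under siFOXA1.2 in RT112 and under siFOXA1.1 in SCaBER.

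KLF5 in SCaBER had 154 and 78.1 CPM under siControl.1, 159.8 and 163 CPM under siControl.2, 102 and 44.7 CPM under siFOXA1.1 and 167 and 163 CPM under siFOXA1.2. In each batch the siFOXA1.1 library was the lowest of the 4. The log2 fold change of KLF5 under siFOXA1.1 was -0.86 (SE 0.32, adjusted p 0.121). With the batch replicate as a block, a fit in which 2 of 7 factors and 1385 of 11902 genes passed, KLF5 did (-0.93, adjusted p 0.0273). It also passed without siControl.1 replicate 2 (-1.07, adjusted p 0.0493) and without siFOXA1.1 replicate 1 (-1.62, adjusted p 0.00277). Without siFOXA1.1 replicate 2 the value of KLF5 was -0.36 (adjusted p 0.519), and without siControl.1 replicate 1 -0.57 (adjusted p 0.303). In 11 of 15 alternatives it did not pass. Under siFOXA1.2 it was 0.28 (SE 0.31, adjusted p 0.999). The difference between the siRNAs was -1.15 (SE 0.36, adjusted p 0.0926), and -1.25 with the block (adjusted p 0.0144). Without siFOXA1.1 replicate 1 it was -1.90 (adjusted p 0.00187) and without siFOXA1.1 replicate 2, where it did not pass, -0.64.

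The other factors of SCaBER had adjusted p values of at least 0.632 under siFOXA1.1 and 0.999 under siFOXA1.2. GATA3 ranged from 7.79 to 18.1 CPM over the 8 libraries, with log2 fold changes of 0.22 (SE 0.46) under siFOXA1.1 and -0.45 (SE 0.47) under siFOXA1.2. PPARG ranged from 12.5 to 29.1 CPM, with -0.31 (SE 0.38) and -0.28 (SE 0.38). TBX3 ranged from 15.0 to 40.6 CPM, with 0.27 (SE 0.37) and 0.38 (SE 0.37). MECOM ranged from 33.6 to 44.4 CPM, with -0.01 (SE 0.26) and 0.03 (SE 0.26), and TFAP2A from 77.5 to 127 CPM, with -0.19 (SE 0.19) and 0.30 (SE 0.19). In all 5 genes the siFOXA1 libraries overlapped with the siControl libraries, and the SE values of GATA3, PPARG and TBX3 were about as large as their changes or larger. TFAP2A differed between siFOXA1.1 and siFOXA1.2 by -0.49 (SE 0.22, adjusted p 0.256).

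FOXA1 in SCaBER had 3 and 4 counts under siControl.1, 15 and 9 under siControl.2, 0 and 3 under siFOXA1.1 and 0 and 6 under siFOXA1.2. The fits without a filter gave -2.21 (SE 2.56) for siFOXA1.1 and -1.19 (SE 2.41) for siFOXA1.2, so a fall of the target was not detectable at this depth. Pooled over the siRNAs, 0 of 7 factors passed in SCaBER in edgeR, DESeq2 and limma, where 0.0084% of all genes did, with 0 of 7 at an unadjusted p under 0.05. The pooled log2 fold changes ran from -0.36 for ELF3 (SE 0.25, adjusted p 0.736) to 0.31 for TBX3 (SE 0.32, adjusted p 0.836). The CPM groups of 4 overlapped for all 7 factors, where those of 5.28% of all genes did not. Between the control siRNAs 0 of 7 factors differed in edgeR, DESeq2 and limma, where 0.0672% of all genes did, also at an unadjusted p under 0.05, and KLF5 had -0.48 (SE 0.36, adjusted p 0.908).

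**Figure D3:**
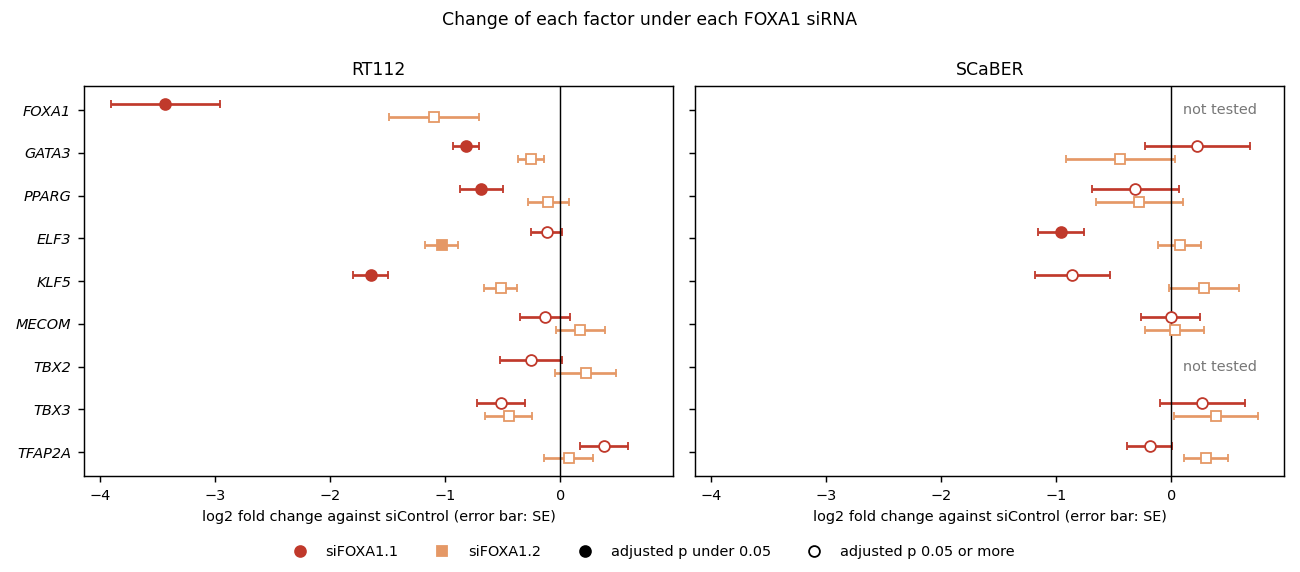
Log2 fold change of each factor against the mean of both control siRNAs (x axis, error bars are SE) under siFOXA1.1 (circles) and siFOXA1.2 (squares), filled where the adjusted p was under 0.05. In RT112 FOXA1, GATA3, PPARG and KLF5 are filled for siFOXA1.1 and ELF3 for siFOXA1.2, and in SCaBER ELF3 is filled for siFOXA1.1.

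Whether a change differed between the lines was tested as the change in RT112 less that in SCaBER. For siFOXA1.1, 0 of 9 factors passed in edgeR, where 3.14% of 13701 genes did, and 2 of 9 had an unadjusted p under 0.05. ELF3 had a difference of 0.83 (SE 0.23, adjusted p 0.0573) and GATA3 of -1.06 (SE 0.32, adjusted p 0.0810). DESeq2 called both (adjusted p 0.0153 and 0.0219). With limma on log2(TPM + 1) 2 factors passed, GATA3 (adjusted p 0.0488) among them, while ELF3 did not (adjusted p 0.293). The block called ELF3 alone (adjusted p 0.0411), where 525 of 13701 genes passed. Single SCaBER libraries also moved these calls: without siControl.2 replicate 2 GATA3 passed (-1.41, adjusted p 0.00848), without siControl.1 replicate 1 ELF3 did (0.89, adjusted p 0.0445), and without siFOXA1.1 replicate 2 GATA3 (-1.31, adjusted p 0.0270) and KLF5 (-1.30, adjusted p 0.0240) did. Without siFOXA1.1 replicate 1 of SCaBER, KLF5 had a difference of -0.05 (adjusted p 0.9999) and GATA3 of -0.79 (adjusted p 0.251), so the difference of KLF5 rests on that library. KLF5 had -0.80 (SE 0.39, adjusted p 0.323), TBX3 -0.80 (SE 0.45, adjusted p 0.399) and TFAP2A 0.55 (SE 0.27, adjusted p 0.320). For siFOXA1.2, 0 of 9 passed in edgeR, where 0.0438% of all genes did, and 1 of 9 had an unadjusted p under 0.05. That was ELF3, with a difference of -1.10 (SE 0.23, adjusted p 0.135), which DESeq2 called (adjusted p 0.00336) and limma did not. KLF5 had -0.80 (SE 0.39, adjusted p 0.833) and TBX3 -0.83 (SE 0.45, adjusted p 0.906). TBX2 was among the 9 although its SCaBER libraries hold no counts, and FOXA1 was near the floor there, so the difference of neither can be read.

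The genes around the factors were followed as fixed lists. Of 21 luminal markers, 18 were tested in RT112. Under siFOXA1.1 14 fell and 1 rose, and under siFOXA1.2 8 fell, where 32.6% and 2.04% of all genes passed in either direction. The largest falls under siFOXA1.1 were those of AGR2 (-4.34, SE 0.43), a secretory chaperone, TFF1 (-3.75, SE 0.52), a trefoil peptide, PSCA (-3.05, SE 0.19), a surface antigen, and HPGD (-2.94, SE 0.20), which degrades prostaglandins. Under siFOXA1.2 TFF1 (-4.41, SE 0.54), PSCA (-2.21, SE 0.18), HPGD (-1.96, SE 0.18) and AGR2 (-1.74, SE 0.34) fell most. In the pooled fit, in which none of the 9 factors passed, 3 markers did: TFF1 (-4.08, adjusted p 0.0366), PSCA (-2.81, adjusted p 0.0400) and HPGD (-2.44, adjusted p 0.0366). The control siRNAs also differed in 4 of 18 luminal markers, where 2.36% of all genes did. All 4 were higher under siControl.1, and PSCA (1.71, SE 0.19), UPK2 (1.16, SE 0.21) and HPGD (0.93, SE 0.19) differed most. In SCaBER 8 luminal markers were tested, and KRT18, a keratin of simple epithelia, fell under siFOXA1.1 (-0.91, SE 0.17, adjusted p 0.00328), the 1 of 8 that passed, against 9.26% of all genes.

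Of 13 other luminal or urothelial factors, 11 were tested in RT112. Under siFOXA1.1, where 32.6% of all genes passed, 4 of the 11 fell, which is near that share: FOXQ1 (-1.94, SE 0.31), another forkhead factor, HES1 (-0.86, SE 0.13), a Notch target, RXRA (-0.74, SE 0.14), the partner of PPARG, and EHF (-0.67, SE 0.21), an ETS factor. Under siFOXA1.2 none of them passed in edgeR. Their median log2 change was -0.67 under siFOXA1.1 and -0.29 under siFOXA1.2. In SCaBER EHF fell under siFOXA1.1 (-1.07, SE 0.32, adjusted p 0.0486), the 1 of 10 tested that passed, where 9.26% of all genes did. Of 15 relatives from the families of the factors, 10 were tested in RT112, and 5 of them passed under siFOXA1.1 against 32.6% of all genes. Of these, TBX1 (-1.60, SE 0.37), PPARA (-1.52, SE 0.35) and EHF fell, and KLF6 (0.88, SE 0.13) and TFAP2C (0.48, SE 0.14) rose.

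Of 11 basal factors, 9 were tested in RT112. Under siFOXA1.1 2 of the 9 passed, against 32.6% of all genes: TP63, the master factor of basal epithelium, fell (-2.53, SE 0.53, adjusted p 0.00116) and JUND rose (1.24, SE 0.11, adjusted p 2.22e-07). Under siFOXA1.2 HMGA2 rose (2.08, SE 0.47, adjusted p 0.0257), the 1 of 9 that passed, against 2.04% of all genes. In SCaBER JUND rose under siFOXA1.1 (0.76, SE 0.19, adjusted p 0.0199), the 1 of 10 that passed, against 9.26% of all genes. Of 14 basal markers, 10 were tested in RT112, of which 4 rose and 2 fell under siFOXA1.1 and 3 rose and 1 fell under siFOXA1.2, where 32.6% and 2.04% of all genes passed in either direction. CD44, an adhesion receptor, rose under both siRNAs in RT112 (0.72, SE 0.16, and 1.33, SE 0.15), in comparisons that share their controls. DSC3, a desmosomal cadherin, fell under siFOXA1.1 (-1.90, SE 0.35) and rose under siFOXA1.2 (1.23, SE 0.29). In SCaBER 4 of 13 basal markers rose under siFOXA1.1, KRT6B most (1.79, SE 0.29), where 9.26% of all genes passed.

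Other gene groups moved with siFOXA1.1, under which 32.6% of all genes passed in RT112 and 9.26% in SCaBER. Of 12 interferon genes, 7 of the 10 tested rose in RT112 and 12 of 12 in SCaBER, among them IFI6 (5.21, SE 0.19, and 3.84, SE 0.23). Of 12 cell cycle genes, 12 fell in each line, among them MKI67 (-3.27, SE 0.24, and -2.32, SE 0.19). Under siFOXA1.2 no gene of these lists passed in edgeR, with median log2 changes of -0.14 and -0.40 for the interferon genes and -0.07 and -0.09 for the cell cycle genes in RT112 and SCaBER. The mitochondrial share of counts was also higher under siFOXA1.1 in RT112, as given above. Whether these changes have a part in those of KLF5, GATA3 and PPARG was not tested.

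**Figure D4:**
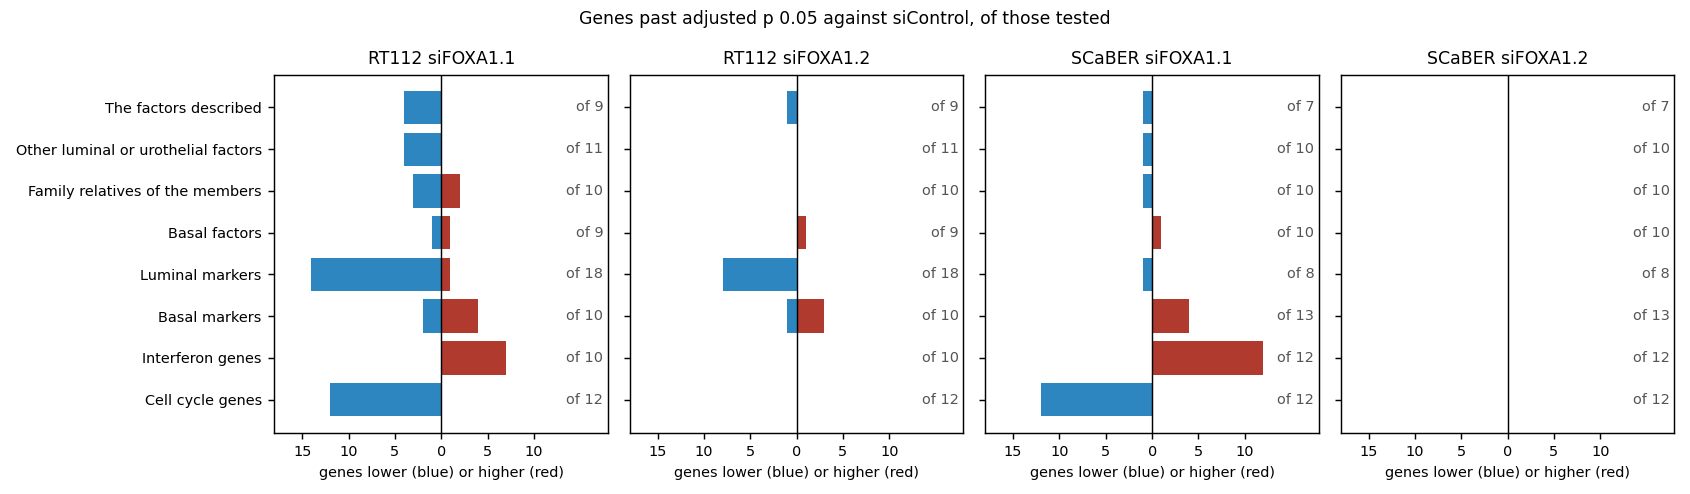
Number of genes past an adjusted p of 0.05 against siControl, higher to the right (red) and lower to the left (blue), for the 10 factors and 7 lists, in 1 panel per line and siRNA; the text at the right gives how many were tested. Luminal markers fell under both siRNAs in RT112 (14 and 8 of 18), while cell cycle genes fell and interferon genes rose under siFOXA1.1.

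The genes whose pattern was most like that of FOXA1 were sought over the 8 RT112 libraries by Pearson's r of log2 CPM, among 11985 other genes. AHCTF1 (r = 0.989), ZBTB4 (0.988), CDKN2C (0.985), WNT7B (0.983) and FPGT (0.981) ranked first. GATA3 had r = 0.937 (rank 106), PPARG 0.909 (rank 251), KLF5 0.869 (rank 565), TBX3 0.684 (rank 2278), MECOM 0.451 (rank 3862), TBX2 0.209 (rank 5205), ELF3 0.0951 (rank 5781) and TFAP2A -0.573 (rank 9550). The libraries share siRNAs in pairs, and these values are a description with no test.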

How the data were processed

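RNA was sequenced from 3' ends (QuantSeq FWD, single-end) in 16 libraries. Per the deposited configuration, the authors trimmed reads with TrimGalore 0.6.2 (minimum quality 20, minimum length 10), aligned them to hg38 with STAR 2.6.1a and counted them on GENCODE 29, and deposited raw counts per gene. The authors also deposited TPM values, that is, counts per gene length with a common sum in each library. The study's methods name hg19 and 10 ng of siRNA where the configuration and the labels give hg38 and 10 nM. No coordinate of the tables was used here. Promoters are from RefSeq.

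Counts were tested with edgeR 4.0.16 in R 4.3.3 (TMM, filterByExpr, quasi-likelihood F test, Benjamini-Hochberg over all genes tested, threshold 0.05). Each line was fitted over its 8 libraries, with 1 mean per siRNA or, when pooled, per target. The 8 siControl libraries were fitted for the difference between the lines and all 16 for the difference of changes. SE is the absolute log2 fold change divided by the root of F. Factors that did not pass the filter were fitted without it and got no call. Some of the comparisons were also run on simulated counts. Those for the pooled fit gave both siRNAs of a target the same mean, so they leave the spread between siRNAs untested. Alternatives were DESeq2 1.42.0, library totals alone, no filter, a replicate block, limma 3.58.1 on log2(TPM + 1), each library left out, 1 mean per siRNA for the pooled fits and, added after seeing the data, each control siRNA alone.

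The labels call the replicate numbers experiment batches, so they pair the libraries. Deviations of same-numbered libraries correlated at -0.0182 to 0.0140 in RT112 and at 0.0187 to 0.198 in SCaBER.

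The 10 factors and the gene lists were chosen with earlier results of these data known, so list counts are descriptions. All 10 factors were to be named in every comparison. They are counted in each, and in the comparisons other than those of 1 siRNA with siControl or of the lines under siControl, some that did not pass are given by count alone. From each list at most 4 genes past the threshold are named, by the size of their change, together with EHF, CD44, DSC3 and the 3 pooled markers. Promoters follow the rule given beside them. The check of subtypes used 5 marker lists. The floor of 3 counts concerns counting error only: no molecular identifiers were used in the tables.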

Additional observations from a re-analysis of the deposited data

Results flagged for a closer look

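In 34 groups of 4 libraries (a factor in a line under siControl or siFOXA1), the gap of the most extreme library to its nearest neighbour was compared with the range of the group, and 2 groups had a library that stood apart by Dixon's test. By chance about 1 in 20 groups would if the 4 libraries of a group came from 1 population. Each group mixes 2 siRNAs, which differed in some factors, so this rate need not hold. KLF5 in SCaBER had 78.1 CPM in siControl.1 replicate 2, and the other 3 siControl libraries had 154 to 163 CPM. Without that library the change of KLF5 under siFOXA1.1 was -1.07 (adjusted p 0.0493 in edgeR) instead of -0.86 (0.121). TFAP2A in RT112 had 38.6 CPM in siControl.2 replicate 2, and the other 3 siControl libraries had 45.6 to 46.8 CPM.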

How the results depend on the processing

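Of 195 counts of factors past the threshold under an alternative, 154 stayed within 1.5 times the main count. Of 1033 values of single factors, 952 kept their direction and their side of the threshold, 22 lost a call, 38 gained one and 21 changed sign. The cause of the changes was not tested. In RT112, the pooled count was 4 with 1 mean per siRNA, a fit in which 2101 genes passed, and 0 when any library was left out. For siFOXA1.2 it was 2 with DESeq2, with no filter, with the replicate block or against siControl.1 alone, 0 with limma, and 1 to 2 when 1 library was left out, with 2 without siFOXA1.1 replicate 1 or 2. Between siFOXA1.1 and siFOXA1.2 it was 3 to 5 when 1 library was left out. Between the control siRNAs in RT112 it was 2 with DESeq2 or no filter, 0 with library totals alone or limma, and 0 to 2 when 1 library was left out. It was 0 there without any one siControl or siFOXA1.2 library and 2 without either siFOXA1.1 library. In SCaBER, for siFOXA1.1 it was 2 with no filter or the block and 1 to 2 when 1 library was left out (2 without siFOXA1.1 replicate 1 or siControl.1 replicate 2). Between the siFOXA1 siRNAs it was 2 with DESeq2, no filter or the block, 0 with limma, and 0 to 2 when 1 library was left out, with 2 without siFOXA1.1 replicate 1. For the difference between the lines under siFOXA1.1 it was 2 with DESeq2, no filter or limma, 1 with the block, and 0 to 2 when 1 library was left out (1 without SCaBER siControl.1 replicate 1 or siControl.2 replicate 2, 2 without SCaBER siFOXA1.1 replicate 2). Under siFOXA1.2 it was 1 with DESeq2 or no filter. The counts of siFOXA1.1 in RT112 (4) and between the lines under siControl (8) were the same in every fit that left out 1 library. The factors called under siFOXA1.1 in RT112 did change. Without siFOXA1.1 replicate 1, PPARG (-0.49) lost its call and TBX3 (-0.73) gained one, and against siControl.1 alone the count was 5. The replicate block changed the calls of KLF5 and ELF3 given above and no other call of a factor reported.

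Values near 0 changed sign. MECOM in SCaBER had 0.0101 under siFOXA1.1 with DESeq2 and 0.0771 against siControl.1 alone, and -0.0694 to 0.0607 when 1 library was left out. Under siFOXA1.2 MECOM had -0.00879 with limma, -0.0538 against siControl.2 alone, and -0.178 to 0.209 when 1 library was left out. Between the lines MECOM had -0.302 with limma and -0.0133 to 0.111 when 1 library was left out. ELF3 under siFOXA1.1 in RT112 had 0.194 against siControl.2 alone and -0.327 to 0.0519 when 1 library was left out, and TBX2 -0.610 to 0.0242. TFAP2A under siFOXA1.2 in RT112 had -0.0330 against siControl.1 alone and -0.0699 to 0.197 when 1 library was left out. In SCaBER, leaving out 1 library gave -0.0595 to 0.586 for GATA3, -0.536 to 0.00276 for PPARG and -0.108 to 0.570 for TBX3 under siFOXA1.1, and -0.519 to 0.0403 for PPARG under siFOXA1.2. With 2 libraries per siRNA, and 3 to 15 counts of FOXA1 in SCaBER controls, changes of low factors were not resolved.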
